A study of Mus musculus with 6 samples.

Results

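The interferon-stimulated genes described here are 37 genes that cells switch on when interferon binds its receptor, and their mRNA was followed in interscapular brown adipose tissue (iBAT), the heat-producing fat between the shoulder blades. The comparison was by genotype. There were 3 iBAT samples from control mice and 3 from *ob/ob* mice, all male, 16 weeks old and on the C57BL/6 background, with 1 Agilent single-dye (Cy3) array for each sample. *ob/ob* mice carry inactive leptin in every tissue and become obese, so differences in their fat cannot be assigned to the fat cells themselves. The sources used here do not describe the control genotype further, name no treatment, and do not tie each sample to a single mouse. The arrays, part of a wider study of brown fat, compared transcripts of obese and control mice. The 37 genes were found through the RefSeq accession of each array probe, and each gene is represented by its brightest probe. A named probe was found for 35 genes, *Mx1* and *Mx2* were not analysed here, and 34 genes were tested, among 19011 genes tested in all. Of the 34, 30 were detected on all 6 arrays.

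Interferons are secreted by cells that sense foreign or misplaced nucleic acid. Type I interferon acts through JAK kinases on a complex that contains STAT2 and IRF9 and binds the interferon-stimulated response element (ISRE), whereas genes induced by IFN-γ often carry the gamma-activated site (GAS). In adipose tissue the induced genes are expressed by adipocytes as well as by resident immune and vascular cells.

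The promoters of the genes were searched for both elements. RefSeq promoter windows (GRCm38.p6), from 250 bases before to 50 bases after a transcript start, matched 29 of the 37 genes. GAAANNGAAA, the core of the ISRE searched on both strands, was found in 17 of these 29 genes (58.6%), against 3.99% of all 27025 genes with a window. TTCNNNGAA, the GAS core, which reads the same on both strands and may overlap an ISRE match, was found in 10 genes (34.5%), against 9.55% of all genes. Both motifs were present in 6 genes and neither in 8. A match describes letters in a window and is no evidence of binding. The stretches below are shown because they belong to genes whose signals are followed in the text. Each reads 5′ to 3′ on the strand of its gene, with the ISRE match in capitals (neighbouring matches run together).
Gbp2: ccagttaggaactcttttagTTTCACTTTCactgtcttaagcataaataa
Gbp3: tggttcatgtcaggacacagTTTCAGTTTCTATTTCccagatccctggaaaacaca
Igtp: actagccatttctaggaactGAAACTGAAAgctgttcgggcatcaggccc
Irgm2: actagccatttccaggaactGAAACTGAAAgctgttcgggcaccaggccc
Stat2: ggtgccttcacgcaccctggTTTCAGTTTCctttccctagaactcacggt
Isg15: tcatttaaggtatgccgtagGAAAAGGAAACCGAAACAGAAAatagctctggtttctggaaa
Ifit1: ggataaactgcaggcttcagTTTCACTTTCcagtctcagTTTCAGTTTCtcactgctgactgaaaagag
Oas1a: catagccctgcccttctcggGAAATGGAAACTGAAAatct

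These stretches lie at chr3:142620584-142620633 (*Gbp2*, plus strand), chr3:142559979-142560034 (*Gbp3*, plus), chr11:58199502-58199551 (*Igtp*, plus), chr11:58214893-58214942 (*Irgm2*, plus), chr10:128270256-128270305 (*Stat2*, plus), chr4:156200855-156200916 (*Isg15*, minus), chr19:34640765-34640833 (*Ifit1*, plus), and chr5:120907526-120907565 (*Oas1a*, minus). All lie upstream of the annotated start in their window. The match began 59 bases before the start in *Gbp2*, 45 in *Gbp3*, and 222 in *Stat2*. *Igtp* and *Irgm2*, neighbouring genes for immunity-related GTPases, shared 48 of the 50 bases shown (96.0%), including the whole motif.

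The arrays did not sort by genotype, which bears on every value below. On each array, 83.5% to 89.9% of spots were well above background. Over all tested probes, Spearman's coefficient between arrays ran from 0.488 to 0.967 within a group and from 0.417 to 0.944 between groups. Control 3 resembled *ob/ob* 1 and 2 (0.915 and 0.944) more than control 1 and 2 (0.642 and 0.730), and *ob/ob* 3 resembled control 1 (0.858) more than *ob/ob* 1 and 2 (0.573 and 0.488). Counts are therefore also given without these arrays. Values are given in log2 units of quantile normalized signal, in the order of arrays 1, 2, and 3 of each group. Control 1, control 3, and *ob/ob* 1 were read in the same scan, and the other 3 arrays in a scan each. *Ucp1*, the uncoupling protein that defines brown adipocytes, was detected on all 6 arrays, at 13.1, 11.7, and 9.48 log2 units on the control arrays and 8.93, 9.12, and 10.03 on the *ob/ob* arrays. *Elovl3*, a fatty acid elongase of active brown fat, was well above background on the 3 control arrays and on 0 of the 3 *ob/ob* arrays.

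No interferon-stimulated gene passed the test between *ob/ob* and control iBAT. Of the 34 genes tested, 0 reached an adjusted p under 0.05 (limma, Benjamini-Hochberg over all probes), and the background over all genes was also 0%. Before adjustment, 1 gene was higher at p under 0.05 (*Gbp2*; background 2.04% of all genes) and 0 were lower (background 1.68%). In 1 gene every *ob/ob* array lay above every control array (*Gbp2*; background 3.76%), and in 1 gene every *ob/ob* array lay below (*Ifit2*; background 4.19%). These counts were near the background. Mean signal was lower in *ob/ob* iBAT for 24 genes and higher for 10, that is, lower for 70.6% of them against 57.1% of all genes, and the median log2 difference (*ob/ob* minus control) was −0.17 against −0.09 for all genes. Fewer cells of a type and less RNA per cell cannot be told apart in whole tissue.

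**Figure D1:**
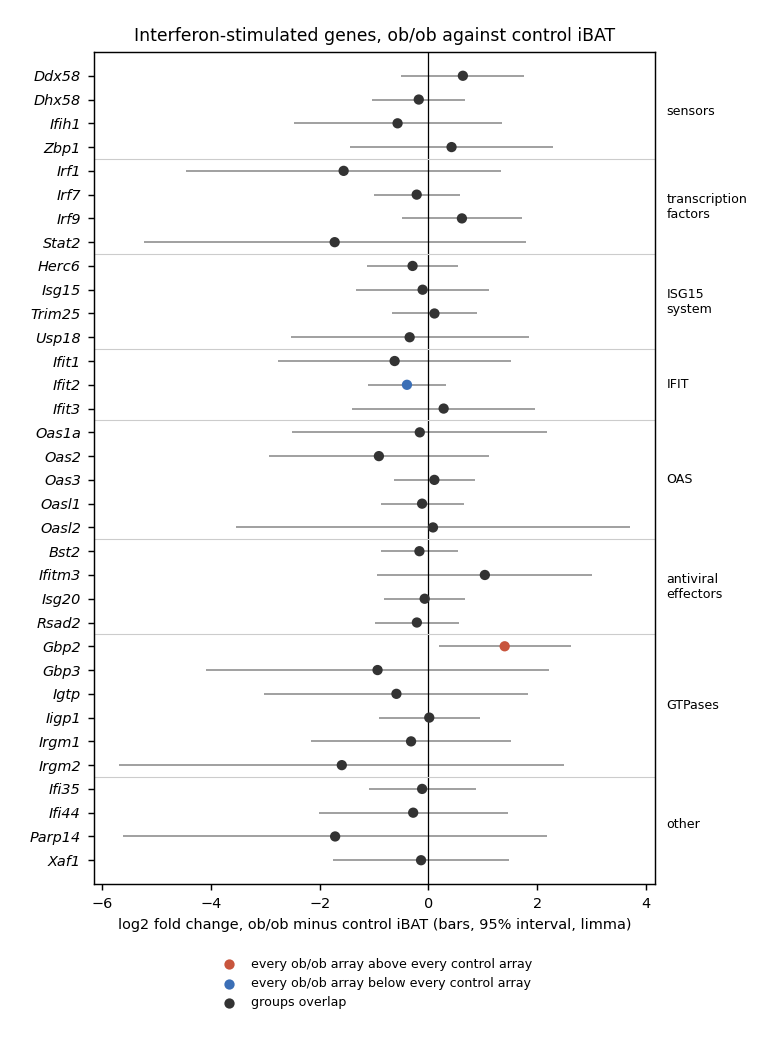
Log2 difference between *ob/ob* and control iBAT for each of the 34 tested interferon-stimulated genes, grouped by role, with the 95% interval from limma as a bar. The interval excluded 0 for *Gbp2* alone, and *Ifit2* was the one gene whose *ob/ob* arrays all lay below the control arrays.

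Signals of these genes varied widely between arrays of the same group. In 32 of the 34 genes, the larger within-group range exceeded the difference between the group means. That count was not made over all genes, so it marks no trait of these genes. In 17 genes (50%) the larger within-group range was over 2 log2 units, compared with 38.1% of all genes. The median signal of the 34 genes was 7.64, 7.54, and 6.06 log2 units on the control arrays and 6.04, 6.01, and 7.87 on the *ob/ob* arrays, so 1 array of each group stood with the opposite group. Of the 6 arrays, *ob/ob* 3 was the highest for 13 genes (30.5% of all genes) and control 1 for 8 (8.52% of all genes). *ob/ob* 2 was the lowest for 10 (11.7% of all genes) and *ob/ob* 1 for 9 (9.96% of all genes).

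**Figure D2:**
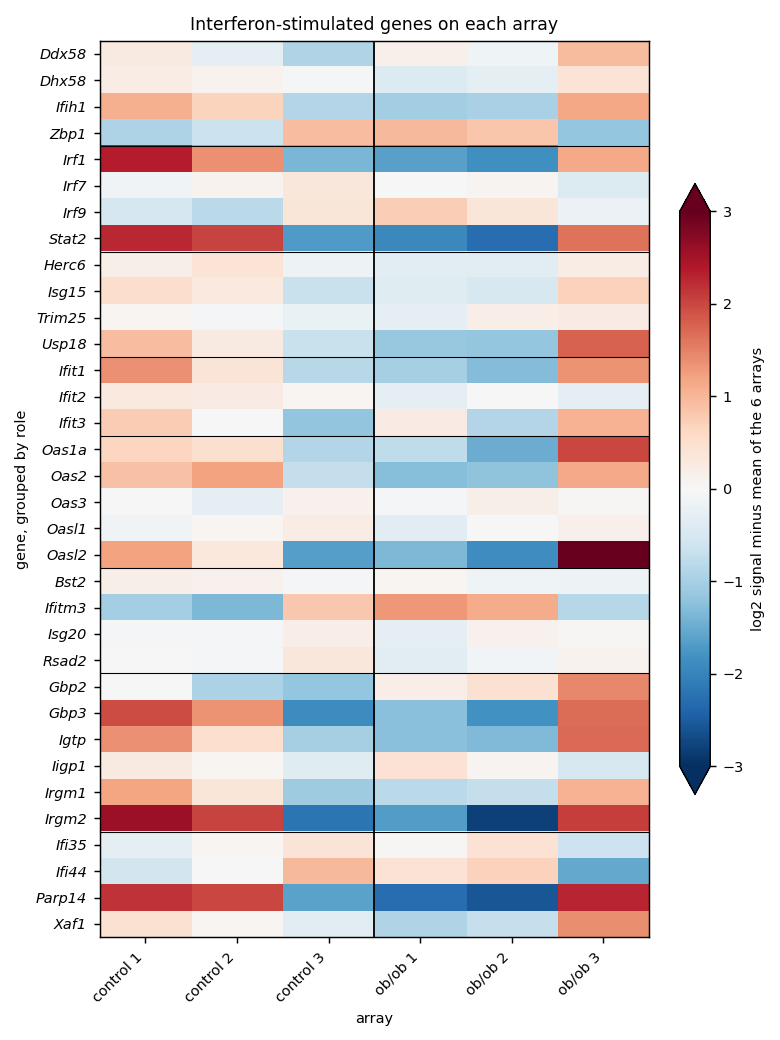
Signal of each tested gene on each array, in log2 units relative to the mean of that gene over the 6 arrays (red, above the mean; blue, below). Control 1, control 2, and *ob/ob* 3 share their colour for *Stat2*, *Irf1*, *Gbp3*, *Irgm2*, and *Parp14*, and control 3, *ob/ob* 1, and *ob/ob* 2 share the opposite colour.

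Among the sensors, the cytosolic RNA helicases gave no call. *Ddx58*, which encodes RIG-I, a receptor for RNA with a 5′ triphosphate, was 7.28, 6.71, and 6.10 log2 units on the control arrays and 7.16, 6.87, and 7.95 on the *ob/ob* arrays. The groups overlapped, and the log2 difference was 0.63 (standard error 0.47). A dimmer probe of *Ddx58* gave −0.16 (standard error 0.81). *Ifih1*, which encodes the long double-stranded RNA receptor MDA5, had a log2 difference of −0.57, and *Dhx58*, which encodes their regulator LGP2, of −0.18. *Zbp1*, a sensor of Z-form nucleic acid, was 7.73, 7.99, and 9.58 on the control arrays and 9.61, 9.48, and 7.48 on the *ob/ob* arrays. It was high on control 3 and on *ob/ob* 1 and 2, the arrays on which *Stat2* was low, with a log2 difference of 0.42 (standard error 0.77) and −0.07 on its dimmer probe.

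The transcription factors differed in direction among themselves. *Stat2*, a signal transducer of the type I response, was 9.55, 9.31, and 5.58 log2 units on the control arrays and 5.36, 5.003, and 8.91 on the *ob/ob* arrays. Control 3 lay more than 3 units below the other control arrays, and *ob/ob* 3 lay more than 3 units above the other *ob/ob* arrays. The log2 difference was −1.73 (standard error 1.45), with an adjusted limma p of 0.999992. *Irf1*, an early IFN-γ target that drives further GAS and ISRE genes, followed the same arrays, at 11.1, 10.1, and 7.40 on the control arrays and 7.15, 6.93, and 9.90 on the *ob/ob* arrays, a log2 difference of −1.56 (standard error 1.20). Its dimmer probe showed no such split and differed by 0.01 (standard error 0.36). *Irf9*, the DNA-binding partner of STAT2, had the opposite profile, at 8.50, 8.20, and 9.37 on the control arrays and 9.74, 9.36, and 8.81 on the *ob/ob* arrays, a log2 difference of 0.62 (standard error 0.46). *Irf7*, the amplifier of type I interferon transcription, stayed between 5.30 and 6.04 on all arrays, with a log2 difference of −0.22.

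In the ISG15 system no gene passed the test. *Isg15*, the ubiquitin-like modifier, was 8.48, 8.25, and 7.28 log2 units on the control arrays and 7.59, 7.46, and 8.64 on the *ob/ob* arrays. The groups overlapped, with a log2 difference of −0.11 (standard error 0.50). Its dimmer probe gave 0.08 and ran the other way across the arrays, highest on control 3 at 8.59 and lowest on *ob/ob* 3 at 6.15, so the probes of this gene disagreed. *Trim25*, a ubiquitin ligase that acts on RIG-I, was 9.23, 9.15, and 8.99 on the control arrays and 8.89, 9.38, and 9.43 on the *ob/ob* arrays, a log2 difference of 0.11 (standard error 0.32). *Herc6*, the ISG15 ligase of mice, differed by −0.29, and by −0.15 on its dimmer probe. *Usp18*, which removes ISG15 and restrains the receptor, was detected on control 1, control 2, and *ob/ob* 3, and was not well above background on the other 3 arrays. Its log2 difference of −0.35 (standard error 0.91) was imprecise.

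The IFIT genes, whose proteins bind RNA that lacks the marks of self, included the one gene with all *ob/ob* arrays below the controls. *Ifit2* was 6.40, 6.35, and 6.16 log2 units on the control arrays and 5.80, 6.08, and 5.83 on the *ob/ob* arrays. The gap between the groups was narrow, and the log2 difference was −0.40 (standard error 0.30; unadjusted limma p = 0.233, adjusted p = 0.999992, two-sided exact permutation p = 0.10). With 3 arrays in each group, 0.10 is the lowest p the permutation test can reach. The *Ifit2* arrays of the groups overlapped under 75th percentile scaling and under normexp background correction. *Ifit1* differed by −0.62 (standard error 0.89), and *Ifit3*, at 7.26, 6.51, and 5.31 on the control arrays and 6.74, 5.63, and 7.55 on the *ob/ob* arrays, differed by 0.28 (standard error 0.69).

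The OAS enzymes make the oligoadenylate signal that activates RNase L. *Oas2* was 7.54, 7.87, and 5.95 log2 units on the control arrays and 5.38, 5.45, and 7.80 on the *ob/ob* arrays. It was high on control 1, control 2, and *ob/ob* 3 and low on the others, with a log2 difference of −0.91 (standard error 0.84). *Oasl1*, an OAS-like protein without the enzyme activity, was 7.44, 7.60, and 7.77 on the control arrays and 7.22, 7.55, and 7.69 on the *ob/ob* arrays, a difference of −0.12 (standard error 0.32). *Oas1a* differed by −0.16, and by 0.30 on its dimmer probe. *Oas3* differed by 0.11, which turned to −0.30 when arrays were scaled to their 75th percentile. *Oasl2* was detected on control 1 (5.47), control 2 (4.57), and *ob/ob* 3 (7.58), and was not well above background on control 3, *ob/ob* 1, and *ob/ob* 2. Its log2 difference of 0.08 had a standard error of 1.498. *Eif2ak2*, which encodes the double-stranded RNA kinase PKR, was well above background on *ob/ob* 3 alone and on 0 of 3 control arrays, so it has no fold.

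Among antiviral effectors at membranes, *Ifitm3*, which blocks fusion of viruses with endosomes, was 9.80, 9.48, and 11.6 log2 units on the control arrays and 12.1, 11.9, and 9.97 on the *ob/ob* arrays. It shared the array profile of *Zbp1* and *Irf9*, with a log2 difference of 1.04 (standard error 0.82). *Bst2*, the tether that holds budding virions, differed by −0.17, *Rsad2*, which encodes viperin, by −0.21, and *Isg20*, an exonuclease, by −0.07 (0.02 when scaled to the 75th percentile, and −0.08 on its dimmer probe). These 3 genes were steady, with standard errors of 0.30, 0.32, and 0.31.

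*Gbp2*, a guanylate-binding protein that acts at the membranes of intracellular pathogens, had the lowest unadjusted p of the list. It was 7.74, 6.78, and 6.56 log2 units on the control arrays and 7.94, 8.19, and 9.16 on the *ob/ob* arrays. Each *ob/ob* value exceeded all control values, although *ob/ob* 1 exceeded control 1 by little. The log2 difference was 1.40 (standard error 0.50, 95% interval 0.19 to 2.62), a 2.64-fold higher mean, with an unadjusted limma p of 0.0300, an adjusted p of 0.999992, and an exact permutation p of 0.10. With the scan as a block, which compares *ob/ob* 1 with control 1 and 3 of its own scan, the log2 difference was 0.78. *Gbp2* was positive under all 18 alternatives, from 0.75 to 1.73, but its unadjusted p was over 0.05 without control 2, control 3, *ob/ob* 2, or *ob/ob* 3, in turn.

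The other GTPases did not follow *Gbp2*. *Gbp3*, its neighbour in family and on the chromosome, was 9.38, 8.77, and 5.54 log2 units on the control arrays and 6.17, 5.62, and 9.10 on the *ob/ob* arrays, a log2 difference of −0.94 (standard error 1.31). *Irgm2*, a regulator of immunity-related GTPases, was 9.24, 8.69, and 4.49 on the control arrays and 5.01, 3.88, and 8.75 on the *ob/ob* arrays, a difference of −1.59 (standard error 1.70), with *ob/ob* 2 not well above background. These values fell into a high and a low set that both groups shared. *Igtp*, with a promoter stretch nearly identical to that of *Irgm2*, differed by −0.59, and *Irgm1* by −0.32 (−0.16 on its dimmer probe). *Iigp1*, an effector that disrupts parasite vacuoles, was 9.56, 9.36, and 8.92 on the control arrays and 9.72, 9.36, and 8.81 on the *ob/ob* arrays, with a difference of 0.01 (standard error 0.38) and −0.19 on its dimmer probe.

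Of the remaining genes, *Parp14*, an ADP-ribosyltransferase, was 9.72, 9.56, and 5.95 log2 units on the control arrays and 5.27, 4.98, and 9.84 on the *ob/ob* arrays, the same split as *Stat2*, with a log2 difference of −1.72 (standard error 1.61). *Ifi44* was 7.20, 7.75, and 8.71 on the control arrays and 8.17, 8.44, and 6.20 on the *ob/ob* arrays, a difference of −0.28 (standard error 0.72). *Ifi44* thus ran opposite to *Parp14* across the arrays. *Ifi35* differed by −0.12, and *Xaf1*, a partner of apoptosis inhibitors, by −0.14 (standard error 0.67). The dimmer probe of *Xaf1*, not well above background on 1 control array, was 4.24, 3.93, and 4.06 on the control arrays and 4.68, 4.46, and 5.12 on the *ob/ob* arrays. On that probe every *ob/ob* array lay above the controls, with a log2 difference of 0.68 (standard error 0.33), so the probes of this gene disagreed.

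**Figure D3:**
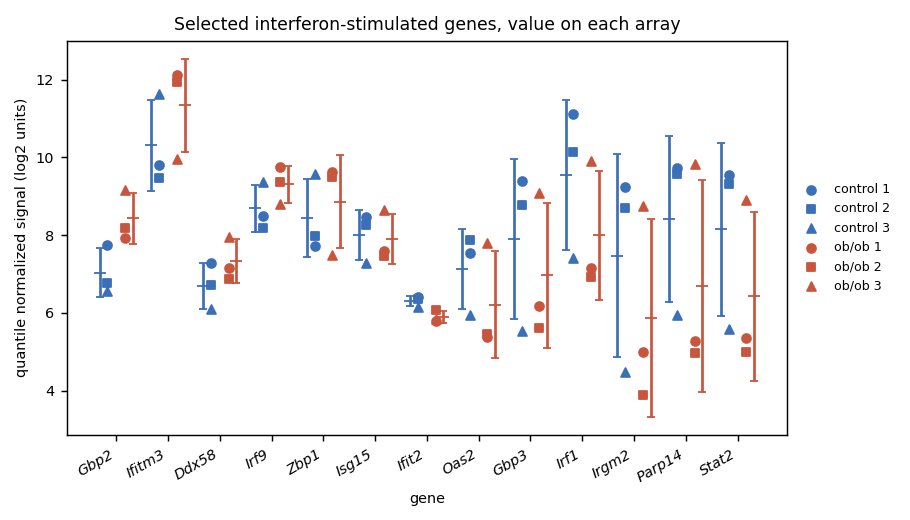
Quantile normalized signal (log2 units) of 13 interferon-stimulated genes on each array; markers show arrays 1, 2, and 3 of each group, and the horizontal dash and bar beside them show the group mean and SD (n = 3). For *Gbp2* the *ob/ob* arrays all lie above the control arrays, and for *Stat2*, *Parp14*, *Irgm2*, *Gbp3*, and *Irf1* control 3 and *ob/ob* 3 lie far from their own groups.

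Leaving out the arrays that stood apart changed the counts. Without *ob/ob* 3, 4 genes were lower at an unadjusted limma p under 0.05 (*Parp14*, *Oas2*, *Xaf1*, and *Usp18*; background 4.33%), 0 were higher (background 5.85%), 13 of 34 genes lay below all controls without overlap (background 14.7%), and 2 lay above (background 14.9%). *Gbp2* was then 0.93 (unadjusted p = 0.0619). Without control 3, 1 gene was lower (*Irf1*; background 4.21%), 0 were higher (background 5.38%), 4 lay below without overlap (background 11.4%), and 3 lay above (background 12.7%), and *Gbp2* was 1.20 (unadjusted p = 0.0850). In both cases 0 genes passed the adjusted threshold. Across the 6 settings that left out 1 array each, the log2 difference ran from −1.20 to −0.18 for *Ifih1*, from −1.32 to −0.10 for *Ifit1*, from −1.41 to −0.06 for *Igtp*, from 0.05 to 1.09 for *Zbp1*, and from 0.63 to 1.76 for *Ifitm3*.

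When control 3 and *ob/ob* 3 were left out together, a setting added after the data were seen that leaves 2 arrays in each group, 19 of the 34 genes passed an adjusted limma p under 0.05, against 48.9% of all genes. At an unadjusted p under 0.05, 16 were lower (background 29.5%) and 5 higher (background 25.3%), 20 lay below without overlap (background 36.9%), and 5 lay above (background 37.9%). *Stat2* was then −3.98, *Parp14* −4.25, and *Irgm2* −4.22 log2 units, whereas *Ifitm3* was 2.39 and *Gbp2* was 0.75 (limma, adjusted p = 0.0881). These 2 arrays were picked because they resembled the opposite group, and removing them favours a separation of the groups by construction. The calls of this setting are therefore reported as values and support no difference between genotypes.

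**Figure D4:**
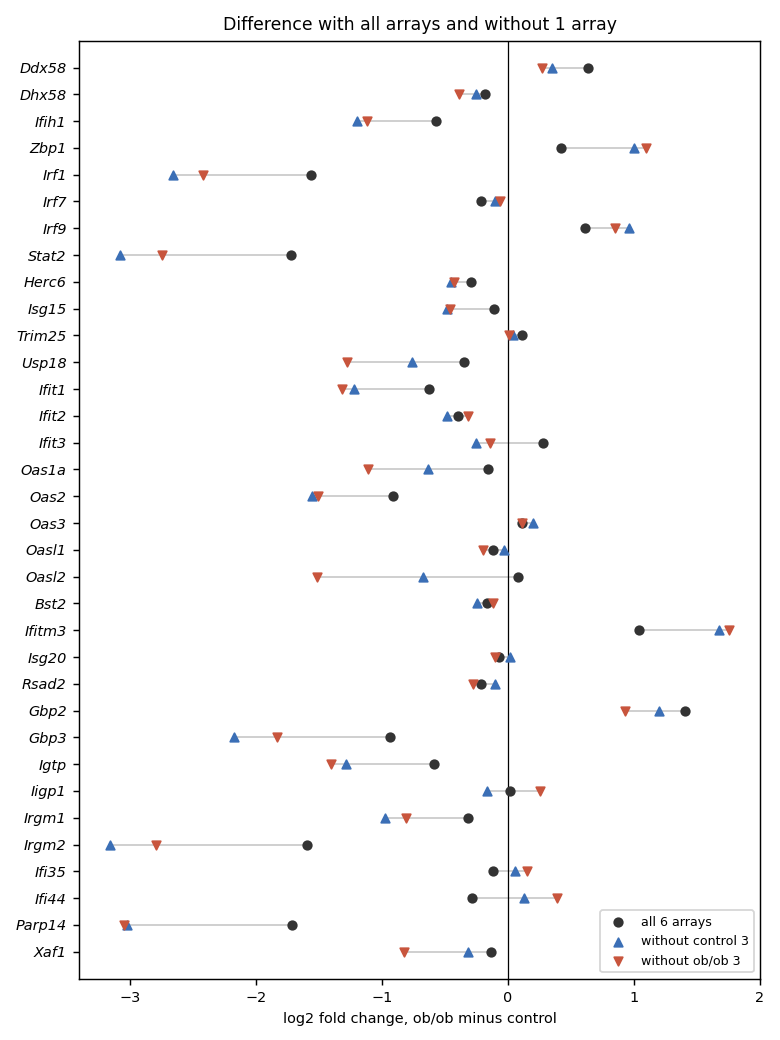
Log2 difference (*ob/ob* minus control) of each tested gene with all 6 arrays (circles), without control 3 (upward triangles), and without *ob/ob* 3 (downward triangles). *Stat2*, *Parp14*, *Irgm2*, *Irf1*, and *Gbp3* moved by more than 0.8 log2 units when either array was left out, and *Gbp2* stayed above 0.9.

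The summed signals of skeletal muscle, brown adipocyte, white adipocyte, and erythrocyte markers all moved with the same arrays. The log2 of the summed signal of 6 brown adipocyte markers (all 6 tested) ran from 12.4 to 16.4 on the control arrays and from 11.7 to 13.4 on the *ob/ob* arrays, and that of 6 skeletal muscle markers from 11.6 to 15.2 and from 8.87 to 15.6. Muscle markers were highest on *ob/ob* 3 (15.6), control 2 (15.2), and control 1 (14.8) and lowest on *ob/ob* 1 (8.87), the arrays on which *Stat2* and *Parp14* were high and low. The brown adipocyte sum was 16.4, 15.7, and 12.4 on the control arrays and 11.8, 11.7, and 13.4 on the *ob/ob* arrays. White adipocyte markers (6 of 6) summed to 12.3, 12.2, and 10.5 and to 10.7, 10.4, and 13.4 in the same order. Erythrocyte markers (2 of 3) summed to 11.1, 9.38, and 7.83 and to 7.76, 7.24, and 12.3. Macrophage markers (7 of 8 tested) summed to 12.1 to 13.9 in controls and 11.7 to 12.3 in *ob/ob* iBAT. The bright probe of *Itgam* carried most of that sum on every array but *ob/ob* 3, and the mean of 5 of the 7 markers was higher in *ob/ob* iBAT. Markers of plasmacytoid dendritic cells (5 of 5), a main source of type I interferon, summed to 14.4 to 15.1 and 12.2 to 14.8, mostly from *Ccr9*. Markers of T cells (6 of 6) summed to 10.5 to 12.001 and 9.61 to 11.98. The sums of these 3 cell types were lowest on *ob/ob* 3, an array on which *Stat2* and *Parp14* were high. The macrophage sum was highest on control 2 (13.9) and control 1 (12.7), where both genes were also high. The plasmacytoid dendritic cell and T cell sums were highest on control 3 (15.1 and 12.001), where both genes were low. Single macrophage markers did not all follow their sum. *Mrc1*, *Fcgr1*, *Lyz2*, and *Cd14* were highest of the 6 arrays on *ob/ob* 3, at 9.98, 7.13, 6.99, and 7.17. *Itgam* and *Adgre1* were lowest there, and *Csf1r* was highest on *ob/ob* 1. Neutrophil markers (4 of 5) summed to 12.2 to 12.7 in controls and 12.9 to 13.7 in *ob/ob* iBAT, with a higher mean in *ob/ob* iBAT for all 4, and endothelial markers (6 of 6) to 12.7 to 13.3 and 11.8 to 12.6, with a lower mean for 5. The groups did not overlap in either sum, and 0 of these 10 markers had an unadjusted limma p under 0.05. They overlapped in the sums of every other cell type, including dendritic (4 of 5 markers), NK (3 of 4), and B cells (4 of 4). In those types, *Elovl3*, *Ppargc1a*, *Retn*, and *Tcf4* were lower and *Mylpf*, *Ms4a1*, and *Gzma* higher in *ob/ob* iBAT at an unadjusted limma p under 0.05. Each had an adjusted p of 0.999992. *Csf3r* carried most of the neutrophil sum. The groups overlapped in *Retnlg*, *S100a8*, and *S100a9*, which were highest on *ob/ob* 3. The endothelial sums of control 3 (12.66) and *ob/ob* 2 (12.63) were almost equal. *Pecam1*, the 1 endothelial marker with a higher mean in *ob/ob* iBAT, carried most of the sum on control 3, *ob/ob* 1, and *ob/ob* 2. The part of tissue composition in the values of the interferon-stimulated genes was not tested.

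Upstream of these genes, 42 of 49 further genes of the interferon pathway were tested, with a median log2 difference of −0.13. At an unadjusted p under 0.05, 2 were higher (background 2.04% of all genes) and 0 lower (background 1.68%), with 0 past adjustment. Of 13 ligand genes, 0 had p under 0.05. *Ifnb1* was 4.69, 4.84, and 4.62 log2 units on the control arrays and 4.86, 5.29, and 4.64 on the *ob/ob* arrays, and *Ifng* was 5.29, 5.71, and 8.51 and 7.56, 7.60, and 5.86 in the same order. Neither ligand separated the groups. *Ifna4* was well above background on 0 arrays.

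At the receptors, *Ifngr2*, the signalling chain for IFN-γ, was 6.82, 6.32, and 7.04 log2 units on the control arrays and 7.90, 7.71, and 8.36 on the *ob/ob* arrays. All *ob/ob* arrays exceeded the controls, with a log2 difference of 1.26 (standard error 0.37; unadjusted limma p = 0.0125, adjusted p = 0.999992, exact permutation p = 0.10). *Ifngr1*, the ligand-binding chain, was 10.3, 10.2, and 7.28 on the control arrays and 7.48, 6.93, and 11.9 on the *ob/ob* arrays, a difference of −0.47 (standard error 1.51). The chains of the type I receptor differed by −0.40 (*Ifnar1*, standard error 0.63) and −1.41 (*Ifnar2*, standard error 1.32), and *Ifnar2* was split between arrays as *Stat2* was, at 9.55, 9.40, and 6.04 on the control arrays and 6.15, 5.42, and 9.20 on the *ob/ob* arrays.

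Among sensors and signalling genes, *Tlr7*, the endosomal receptor for single-stranded RNA, was 6.10, 5.90, and 7.53 log2 units on the control arrays and 8.14, 8.09, and 7.59 on the *ob/ob* arrays. The groups did not overlap, but control 3 and *ob/ob* 3 were almost equal. The log2 difference was 1.43 (standard error 0.52, unadjusted limma p = 0.0312, adjusted p = 0.999992, exact permutation p = 0.10). With the probes of *Tlr7* averaged it was 1.01, and under normexp background correction the groups overlapped. Without 1 array, *Ifngr2* had an unadjusted p over 0.05 only when control 2 was left out, whereas *Tlr7* had one when control 1, control 2, *ob/ob* 1, or *ob/ob* 2 was. The DNA sensor *Cgas* differed by 0.57 (standard error 0.47) and its adaptor *Sting1* by −0.60 (standard error 0.89), with overlap in both. *Irf3*, the factor they activate, differed by −1.59 (standard error 0.97), *Irf8* by −0.02, and *Socs1*, a brake on JAK kinases, by 0.51 (standard error 0.37).

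Of 86 further interferon-induced genes, 74 were tested, with a median log2 difference of −0.07. At an unadjusted p under 0.05, 2 were lower (background 1.68%) and 0 higher (background 2.04%), and 0 passed adjustment. In 2 genes (*Sp110* and *Oas1c*) every *ob/ob* array lay above every control array (background 3.76%), and in 5 (*Cmpk2*, *Gbp6*, *Lgals3bp*, *Lgals9*, and *Psme1*) every *ob/ob* array lay below (background 4.19%). Log2 differences in these 7 genes ran from −2.69 (*Lgals3bp*) to 1.55 (*Sp110*). *Gbp6*, a relative of *Gbp2*, was 10.6, 10.9, and 11.7 log2 units on the control arrays and 10.1, 9.61, and 7.22 on the *ob/ob* arrays, a log2 difference of −2.10 (standard error 0.81; unadjusted limma p = 0.0391, exact permutation p = 0.10). *Lgals3bp*, a secreted glycoprotein, was 11.9, 12.8, and 12.2 on the control arrays and 10.6, 10.8, and 7.54 on the *ob/ob* arrays, a log2 difference of −2.69 (standard error 0.91; unadjusted limma p = 0.0237, exact permutation p = 0.10). Both had an adjusted p of 0.999992, every *ob/ob* array of both lay below the controls, and *ob/ob* 3 was the lowest. With the probes of a gene averaged, the differences were smaller, at −1.14 for *Gbp6* and −1.55 for *Lgals3bp*. With the scan as a block they were −1.06 and −1.48. Without *ob/ob* 3 the differences were −1.24 and −1.70, and the unadjusted p of both was over 0.05 without control 2 or without control 3, and for *Gbp6* also without control 1.

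**Figure D5:**
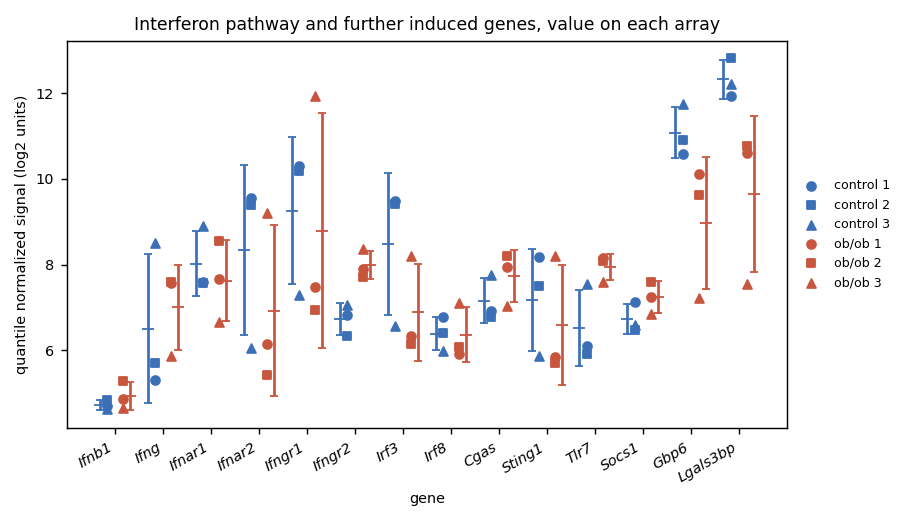
Quantile normalized signal (log2 units) of interferon pathway genes and of *Gbp6* and *Lgals3bp* on each array, with the group mean and SD (n = 3). *ob/ob* arrays all lie above the controls for *Ifngr2* and *Tlr7* and all below for *Gbp6* and *Lgals3bp*, whereas *Ifnar2*, *Ifngr1*, and *Irf3* are split within each group.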

How the data were processed

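The authors extracted RNA with TRIzol, labelled it with Cy3, hybridised 1 Agilent array per sample, and deposited the Feature Extraction (version 11.0.1.1) output, whose processed intensity is corrected for background within the array but not normalized between arrays. A second deposited file holds log2 signals that the authors had quantile normalized in GeneSpring, and it served as an alternative. Here, replicate spots were averaged as log2 values and quantile normalized, and *ob/ob* was compared with control by limma (version 3.58.1, R 4.3.3) for 35448 probes well above background on at least 3 of 6 arrays. That flag stands in for the detection flag of the study's methods. Names were taken through RefSeq accessions (GRCm38.p6), which named 27234 of 28684 such probes. The brightest probe stood for a gene. Adjusted p values follow Benjamini and Hochberg over all probes tested. The number of arrays, 3 per group, limits the precision. A legend of the study counts 3 per group, but the labels tie no sample to a mouse; p values measure the spread between these samples, which may be technical if they are not separate mice. The members and lists were chosen with earlier results of these data known. Array values are printed for members that do not overlap, that have an unadjusted p under 0.05, or that are brightest in a role group. They are also printed for members with the 5 highest or 5 lowest differences among members detected on all 6 arrays. Pathway genes have them where the unadjusted p was under 0.05, and so do part of those listed by name. For *Ifnar1*, *Irf3*, *Irf8*, *Socs1*, *Cgas*, and *Sting1* the text gives the log2 difference without array values. Further induced genes have array values with both an unadjusted p under 0.05 and no overlap. *Isg15*, *Irgm2*, *Oasl2*, and the dimmer probe of *Xaf1* were added after their values were seen. Alternatives changed the normalization, background correction (normexp, offset 50), source of values, detection filter and flag, test, probe rule, replicate or scan block, and arrays left out. The limma code was tested on simulated data. A result that the rule for named genes would have given is not reported here.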

Additional observations from a re-analysis of the deposited data

How the results depend on the processing

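With 3 arrays in each group and signals that split within both, these data could not resolve small differences. The count of interferon-stimulated genes past an adjusted p under 0.05 was 0 under every alternative but 1, which left out control 3 and *ob/ob* 3 together and gave 19. That setting was chosen after seeing the data, from arrays that resembled the opposite group, which by itself favours separation. It also gave 5 genes higher and 16 lower at an unadjusted p under 0.05, 5 above and 20 below without overlap, 26 of 42 pathway and 48 of 74 further induced genes with p under 0.05 (all genes, 25.3% higher and 29.5% lower), and a pathway median of 0.27. Leaving out arrays, 1 at a time or these 2 together, gave 0 to 5 genes higher, 0 to 16 lower, 1 to 5 above and 1 to 20 below without overlap, 0 to 26 pathway and 0 to 48 further genes, and pathway medians from −0.16 to 0.27. Genes higher at an unadjusted p under 0.05 numbered 0 with 75th percentile scaling, the methods' t-test, an intensity trend, the replicate block, and the scan block. The t-test called 1 lower (*Ifit2*). Genes below without overlap numbered 2 with 75th percentile scaling (*Dhx58* and *Herc6*, with *Ifit2* overlapping) and 0 with normexp. Pathway calls were 0 with 75th percentile scaling and either block and 1 with the t-test. Further induced genes with p under 0.05 numbered 4 on the authors' values, 1 with the trend, 1 with the replicate block, and 0 with the scan block. Scaling to the 75th percentile moved the median of all probes from −0.07 to −0.32 and the pathway median to −0.28. Deviations of same-numbered arrays from their group means correlated at −0.78, −0.66, and −0.85. Control 3 and *ob/ob* 3 each resembled the opposite group, which by itself makes these values negative. The coefficients therefore cannot decide whether the numbers pair the samples. The replicate block left the median of the interferon-stimulated genes at −0.17. The within-scan comparison is the scan block itself, as only 1 scan held both groups. The sign held under all 18 alternatives for 19 genes and turned under at least 1 for 15. It turned with the scan block for *Trim25* (−0.22), *Oas3* (−0.12), *Oasl2* (−1.12), and *Ifi44* (0.22), with 75th percentile scaling for *Oas3* (−0.30) and *Isg20* (0.024), with normexp for *Oas1a* (0.092) and *Xaf1* (0.024), with detection on all 6 arrays for *Oas1a* (0.30, another probe), and with the mean of a gene's probes for *Oas1a* (0.069), *Iigp1* (−0.087), and *Xaf1* (0.27). Over the settings that left out arrays, log2 differences ran from −0.33 to 0.040 for *Irf7*, −0.81 to 0.13 for *Isg15*, −0.057 to 0.28 for *Trim25*, −1.67 to 0.17 for *Usp18*, −0.62 to 0.81 for *Ifit3*, −1.55 to 0.58 for *Oas1a*, −0.013 to 0.20 for *Oas3*, −0.20 to 0.018 for *Oasl1*, −2.24 to 1.08 for *Oasl2*, −0.16 to 0.045 for *Isg20*, −0.20 to 0.26 for *Iigp1*, −1.39 to 0.19 for *Irgm1*, −0.38 to 0.30 for *Ifi35*, −0.73 to 0.80 for *Ifi44*, and −1.01 to 0.30 for *Xaf1*. The cause of these shifts was not tested.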
